A study of Mus musculus with 8 samples.

Results

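The liver genes described here encode enzymes that turn tryptophan into kynurenine and on into NAD, together with the main enzyme of NAD salvage. The set has 9 genes, Tdo2, Afmid, Kmo, Kynu, Haao, Acmsd, Qprt, Nadsyn1 and Nampt, of 16593 genes on an Illumina bead array. The set was chosen by a measured value, since Haao had the largest fall on arrays labelled Fxr-/- relative to arrays labelled Fxr+/+. All probes annotated to these symbols were taken, and the probe with the highest mean signal stands for its gene. Of the 9 genes, 8 had a probe (17 probes in all), and all 8 passed the filter on dim probes that left 9766 genes for testing. Acmsd had no probe in the annotation used and was not analysed here.

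Livers came from male mice aged 10 to 12 weeks, labelled Fxr+/+ or Fxr-/-, that were gavaged 2 times a day for 7 days with vehicle or with 30 mg/kg of GW4064. GW4064 is a nonsteroidal compound that activates FXR, the nuclear receptor for bile acids encoded by Nr1h4. The series asked which liver genes FXR regulates. Each array held a pool of 3 to 4 individual samples, so a replicate is a pool, and the 4 groups had 2 deposited columns each. The column of Fxr-/- vehicle replicate 2 held whole numbers from 14 to 139 that did not follow the other arrays (highest Spearman correlation 0.0559) and was not used, which left 1 array in that group. The labels name neither the strain nor the design of the deletion.

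The liver is the main site where tryptophan is made into NAD. Tdo2 and Afmid open the tryptophan ring to give kynurenine, and Kmo, Kynu and Haao carry it on to the precursor of quinolinate. Qprt and Nadsyn1 then build NAD from quinolinate, while Acmsd diverts the intermediate towards complete oxidation and Nampt recycles nicotinamide.

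The signals were deposited already background-subtracted and quantile normalized, and values whose size was under 39.5, that of the most negative signal, are called within the background range. The Nr1h4 probe was lower on all 3 arrays labelled Fxr-/- than on all Fxr+/+ arrays, but its signal was not lost there. It read from 3328 to 4411 on the 4 Fxr+/+ arrays and 3272, 2048 and 1852 on the 3 arrays labelled Fxr-/-, and whether it lies in the deleted part is not known here, so the genotype is given as labelled. Liver identity was checked on 7 hepatocyte markers with a probe. Apoa1 lay between 27881 and 32516 on all 7 arrays and Ttr between 15406 and 31462, whereas the probe of Alb read from 81.6 to 168.7 on every array and that of Fabp1 was within the background range. Of these markers, Hnf4a was lower on all 3 arrays labelled Fxr-/- (2212 to 3507) than on the Fxr+/+ arrays (4977 to 5437), as were Serpina1a (4514 to 9242 against 14017 to 20716) and the dim Alb, and Cps1 was higher (16799 to 22291 against 11500 to 16053).

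The members differed in direction and in size between the genotype labels. Of the 8 measured genes, 6 were lower on all 3 arrays labelled Fxr-/- than on all 4 Fxr+/+ arrays, 1 was higher (Tdo2) and 1 overlapped (Nampt). Among all genes tested, 16.1% were lower and 19.2% higher in the same sense. Because a difference between the labels chose Haao, the comparison of labels is a description without a test, for all members, and nothing is read from these counts. In whole liver RNA, fewer cells of a type and less RNA per cell cannot be told apart.

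**Figure D1:**
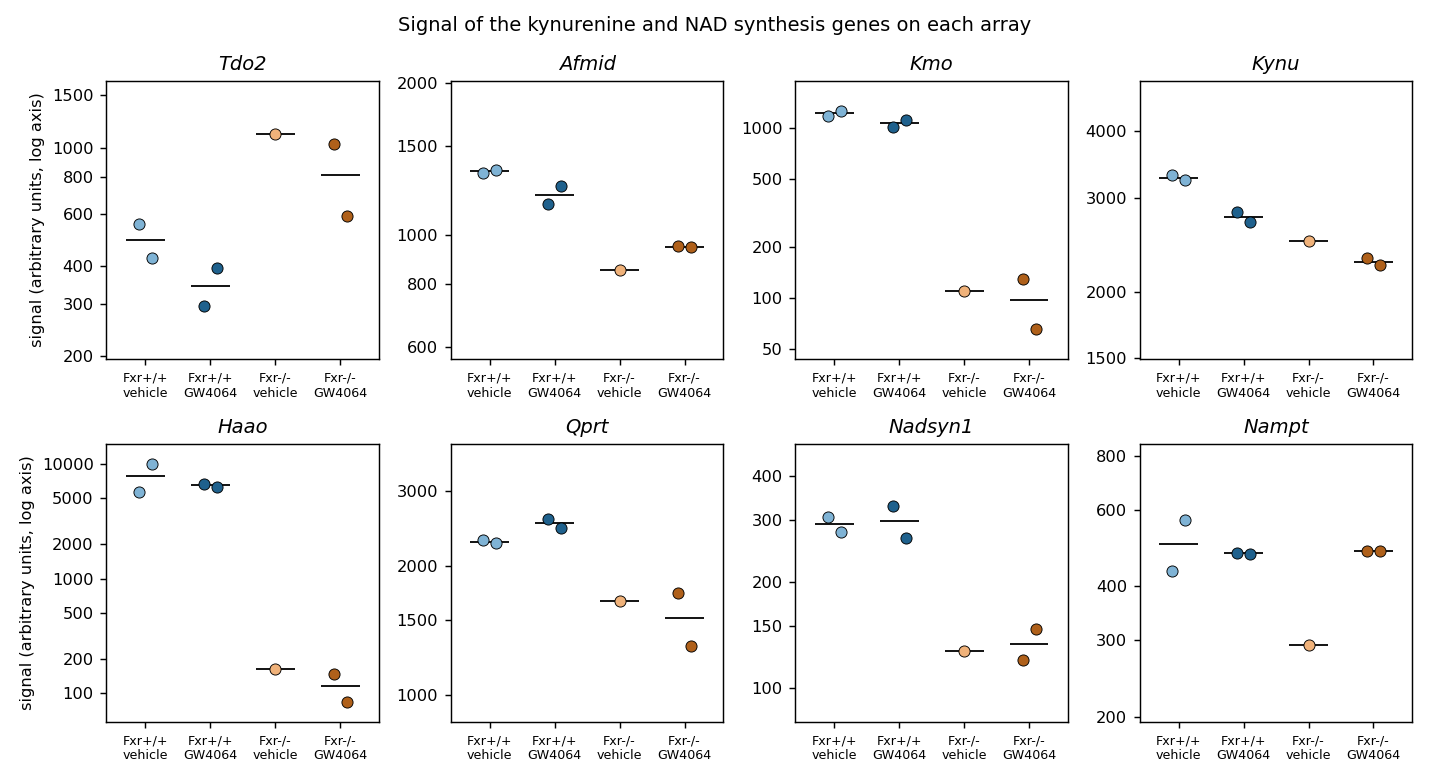
Signal of the main probe of each measured gene (log axis, arbitrary units) on each of the 7 arrays, in 4 groups; points are arrays and horizontal lines are group means. Haao and Kmo lie far lower on the 3 arrays labelled Fxr-/-, Tdo2 lies higher, and Nampt is low on the Fxr-/- vehicle array alone.

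Tdo2 encodes the hepatic dioxygenase that starts the pathway and limits its rate. Its signals were 555 and 426 in Fxr+/+ vehicle, 294 and 395 in Fxr+/+ GW4064, 1116 in Fxr-/- vehicle, and 1030 and 590 in Fxr-/- GW4064 arrays. All arrays labelled Fxr-/- lay above all Fxr+/+ arrays, but the lowest of the former (590) was close to the highest of the latter (555). The log2 difference between the labels (Fxr-/- minus Fxr+/+) was 1.17 under vehicle and 1.16 under GW4064, or 0.76 and 1.55 under GW4064 when Fxr-/- GW4064 replicate 1 or 2 was left out.

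Afmid, the formamidase that yields kynurenine, was measured by 7 probes. Its brightest probe read 1327 and 1347 in Fxr+/+ vehicle, 1154 and 1251 in Fxr+/+ GW4064, 850 in Fxr-/- vehicle, and 949 and 946 in Fxr-/- GW4064 arrays. The groups of the 2 labels did not overlap on this probe, and the log2 difference was -0.64 under vehicle and -0.34 under GW4064. All 7 probes had a negative difference under both treatments, from -0.29 to -0.64 under vehicle and from -0.34 to -0.82 under GW4064, and on 5 of them the labels did not overlap. The probes disagreed on the pair of Fxr-/- GW4064 arrays. The brightest probe gave replicate 2 at 99.7% of replicate 1, whereas the 6 other probes gave between 49.2% and 70.3%.

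**Figure D2:**
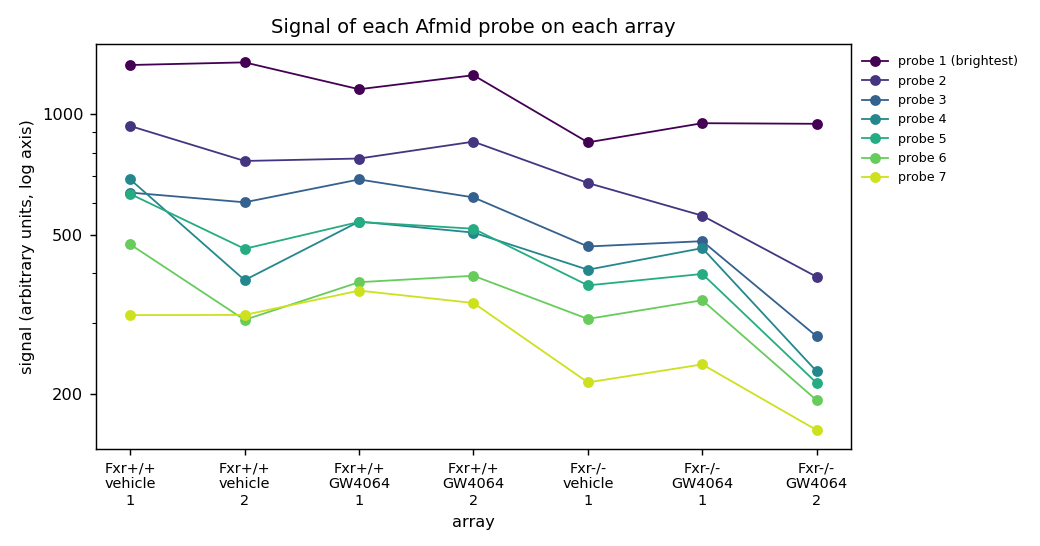
Signal (log axis, arbitrary units) of each of the 7 Afmid probes on each of the 7 arrays; a line joins the values of 1 probe and implies no order of the arrays. The brightest probe is level between the Fxr-/- GW4064 replicates, and the 6 other probes are lower on replicate 2.

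Kmo, the mitochondrial monooxygenase that hydroxylates kynurenine, had signals of 1181 and 1270 in Fxr+/+ vehicle and 1017 and 1127 in Fxr+/+ GW4064 arrays. On arrays labelled Fxr-/- it read 109 under vehicle and 129 and 65.3 under GW4064. The lowest Fxr+/+ array was thus well above the highest array labelled Fxr-/-, and the group means under the Fxr-/- label were 8.92% of those of Fxr+/+ under vehicle and 9.08% under GW4064. The log2 differences were -3.31 and -3.32, placing Kmo at rank 48 and 52 from the lowest of the 9766 genes.

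Kynu encodes kynureninase, which cleaves hydroxykynurenine. It read 3312 and 3237 in Fxr+/+ vehicle, 2817 and 2703 in Fxr+/+ GW4064, 2484 in Fxr-/- vehicle, and 2313 and 2242 in Fxr-/- GW4064 arrays. The 4 groups did not overlap one another, but the steps between them were small, with log2 differences between the labels of -0.40 under vehicle and -0.28 under GW4064.

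Haao encodes the dioxygenase that opens the ring of hydroxyanthranilate, the step before quinolinate. Signals were 5714 and 9991 in Fxr+/+ vehicle and 6633 and 6351 in Fxr+/+ GW4064 arrays, and the vehicle pair spanned the GW4064 pair. On arrays labelled Fxr-/- they were 164 under vehicle and 149 and 85 under GW4064, all above the background range. The Fxr+/+ mean was 48 times that of the Fxr-/- label under vehicle and 55.5 times under GW4064. With log2 differences of -5.40 and -5.66, Haao was the lowest of all genes tested under vehicle and rank 2 under GW4064. The next lowest gene under vehicle was Cidec at -4.84, and under GW4064 Cyp8b1 lay below Haao at -6.50 and Mfsd2a above it at -5.58. These values chose the gene and are given as a description.

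Qprt, which joins quinolinate to a phosphoribosyl group, read 2303 and 2261 in Fxr+/+ vehicle, 2579 and 2463 in Fxr+/+ GW4064, 1663 in Fxr-/- vehicle, and 1733 and 1298 in Fxr-/- GW4064 arrays. The labels did not overlap, with log2 differences of -0.45 under vehicle and -0.74 under GW4064. Under GW4064 the difference was -0.95 or -0.54 when replicate 1 or 2 of the Fxr-/- arrays was left out.

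Nadsyn1, the synthetase of the last step to NAD, had 3 probes. Its brightest probe read 306 and 279 in Fxr+/+ vehicle, 330 and 267 in Fxr+/+ GW4064, 127 in Fxr-/- vehicle, and 120 and 147 in Fxr-/- GW4064 arrays. No array labelled Fxr-/- reached the level of any Fxr+/+ array on this probe, with log2 differences of -1.10 and -1.07. The 2 other probes averaged 57.5 and 53.1 over the 7 arrays, near the background range. Their differences were negative under both treatments, from -0.49 to -1.32. On the dimmest probe, however, the labels overlapped, and the Fxr+/+ vehicle pair read 106.8 and 31.9. Its values on arrays labelled Fxr-/- (23.1, 36.8 and 10.5) were all within the background range.

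Nampt, the rate-limiting enzyme of salvage from nicotinamide, differed from the kynurenine genes. Its brighter probe read 434 and 568 in Fxr+/+ vehicle, 478 and 474 in Fxr+/+ GW4064, 292 in Fxr-/- vehicle, and 482 and 482 in Fxr-/- GW4064 arrays. The Fxr-/- vehicle array alone stood apart, below the range from 434 to 568 that held the 6 others. The log2 difference between the labels was accordingly -0.73 under vehicle, from 1 array of the Fxr-/- label, and 0.02 under GW4064. The dimmer probe, with a mean of 71.4, gave 0.05 and 0.21.

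**Figure D3:**
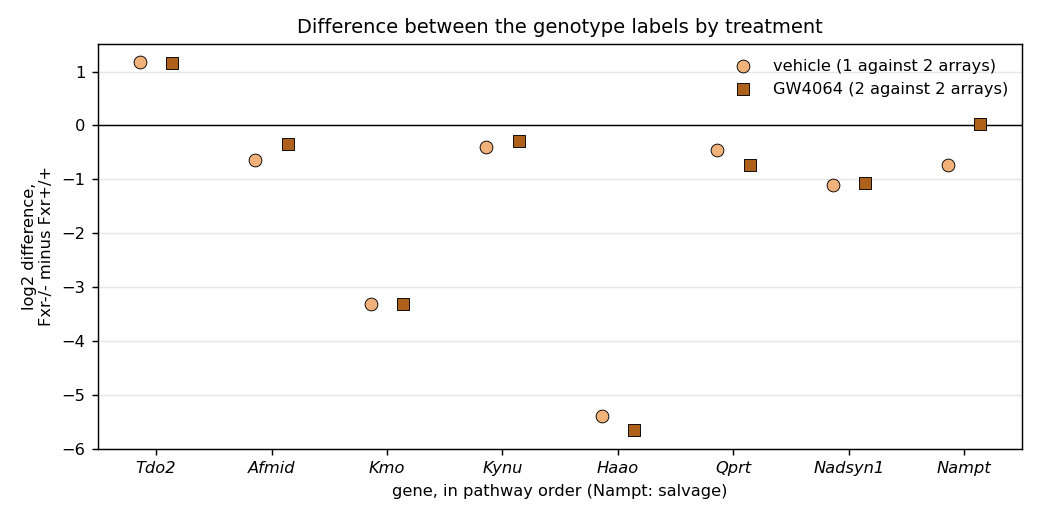
Log2 difference between arrays labelled Fxr-/- and Fxr+/+ (vertical axis) for each gene in pathway order, under vehicle (circles, 1 against 2 arrays) and GW4064 (squares, 2 against 2 arrays). The values lie between -5.66 and 1.17, and Haao and Kmo have the lowest values under both treatments; no error is drawn because the comparison of labels is not tested.

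RefSeq promoter windows are shown for the 2 members that were lowest under the Fxr-/- label and the 1 that was higher, from 250 bases before to 50 bases after the start in assembly GRCm38.p6. They are chr17:83846741-83847040 (minus strand), chr1:175631943-175632242 (plus strand) and chr3:81975679-81975978 (minus strand), written 5′ to 3′ on the gene's strand. Capitals mark a nuclear receptor half-site, AGGTCA or its reverse complement, or the TATA motif TATAAA.
Haao: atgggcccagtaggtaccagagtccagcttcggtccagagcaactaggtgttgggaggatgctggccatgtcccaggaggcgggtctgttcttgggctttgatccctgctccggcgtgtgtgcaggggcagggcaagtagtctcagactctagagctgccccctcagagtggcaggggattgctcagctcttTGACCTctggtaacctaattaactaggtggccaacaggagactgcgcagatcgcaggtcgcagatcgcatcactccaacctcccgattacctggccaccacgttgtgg
Kmo: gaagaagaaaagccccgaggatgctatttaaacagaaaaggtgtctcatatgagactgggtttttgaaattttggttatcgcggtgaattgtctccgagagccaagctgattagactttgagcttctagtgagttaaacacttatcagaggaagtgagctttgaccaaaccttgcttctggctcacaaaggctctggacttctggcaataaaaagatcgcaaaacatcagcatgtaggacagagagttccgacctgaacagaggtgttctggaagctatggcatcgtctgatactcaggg
Tdo2: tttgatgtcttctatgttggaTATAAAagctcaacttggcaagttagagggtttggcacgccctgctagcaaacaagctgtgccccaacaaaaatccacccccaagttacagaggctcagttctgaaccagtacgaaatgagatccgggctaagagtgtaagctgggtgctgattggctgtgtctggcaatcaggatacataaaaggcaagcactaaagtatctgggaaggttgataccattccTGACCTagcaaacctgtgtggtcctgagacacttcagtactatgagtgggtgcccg
Of the 9 genes, 8 had such a window (Kynu had none), and 4 of these held the half-site on either strand, Haao at position -58 from the start, Tdo2 at -6, Acmsd at -232 and Nampt at -151. The half-site occurred in 16.3% of 32841 promoter windows of the same length. The inverted repeat AGGTCANTGACCT, the classical arrangement bound by FXR, was in none of the 8 windows and in 0.00913% of all, and the direct repeat AGGTCANAGGTCA in none and 0.0396%. TATAAA was found in Tdo2, at -229, and in 13.6% of all windows. Kmo held none of these letters in its window. A match in letters describes the sequence and is not evidence of binding.

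The response to GW4064 was tested apart from the difference between the labels, although it uses the same arrays. In Fxr+/+ mice 0 of the 8 genes passed the threshold (limma, Benjamini-Hochberg adjusted p under 0.05 over all 9766 genes), against 0.0205% of all genes. At an unadjusted limma p under 0.05 there were 0 of the 8, beside 494 of all 9766 genes. Tdo2 had the widest change, with 491 ± 91.3 under vehicle and 344 ± 71.5 under GW4064 (SD over 2 arrays each). The log2 change was -0.50 (SE 0.304, 95% interval -1.20 to 0.21, limma adjusted p = 1). Kynu had 3275 ± 53.3 and 2760 ± 80.4 (SD over 2 arrays each), a log2 change of -0.25 (SE 0.178). In Tdo2, Afmid, Kmo and Kynu the GW4064 pair lay below the vehicle pair, and in Qprt above it. How many of all genes had such separate pairs was not counted, and pairs of 2 arrays separate easily. Nothing is read from these orders. Haao had 7853 ± 3024 and 6492 ± 199 (SD over 2 arrays each), a log2 change of -0.22 (SE 0.328, 95% interval -0.98 to 0.55), and without vehicle replicate 2, the array at 9991, its value was 0.18. Of the 8 genes, 6 were below 0 with a median of -0.17, beside a median of -0.01 over all genes.

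In mice labelled Fxr-/- the response was again not resolved. None of the 8 genes passed by limma, against 0.0717% of all genes. At an unadjusted limma p under 0.05 there was 1 of the 8, beside 955 of all 9766 genes, and nothing is read from it. Nampt had the smallest p, with 292 on 1 vehicle array and 482 ± 0.354 (SD, n = 2) under GW4064, a log2 change of 0.69 (SE 0.247, 95% interval 0.12 to 1.27, limma adjusted p = 0.409, unadjusted p = 0.0245). Its dimmer probe changed by 0.06. Tdo2 had a log2 change of -0.51 (SE 0.372), and its value was -0.90 without GW4064 replicate 1 and -0.11 without replicate 2. Haao had -0.48 (SE 0.402, 95% interval -1.41 to 0.46), and -0.83 or -0.12 without GW4064 replicate 1 or 2. Kmo had -0.20 (SE 0.346), and -0.62 or 0.21 without replicate 1 or 2. Qprt had -0.15 (SE 0.254), and -0.35 or 0.06 likewise. Afmid had 0.15 (SE 0.22), Kynu -0.12 (SE 0.218) and Nadsyn1 0.06 (SE 0.252). The median over the 8 genes was -0.14, beside 0.01 over all genes.

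The GW4064 effects of the labels were then set against each other. No member passed (0 by limma, 1 at an unadjusted p under 0.05), and over all genes 0% passed, with 604 at an unadjusted p under 0.05. The widest difference was that of Nampt, 0.75 on the log2 scale (SE 0.319, limma adjusted p = 0.80). For Tdo2 it was -0.01 with a 95% interval from -1.13 to 1.11, and for Haao -0.26 with an interval from -1.47 to 0.95, so a 2-fold difference in either direction lay within the interval of Tdo2 and a more than 2-fold lower one within that of Haao.

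With the label as a covariate, all 7 arrays gave 1 estimate of the GW4064 effect per gene, and 0 of the 8 genes passed, against 0.0717% of all genes. Tdo2 had the smallest p of the members, with a log2 change of -0.50 (SE 0.223, 95% interval -1.01 to 0.01, limma adjusted p = 0.647, unadjusted p = 0.0541). Haao had -0.32 (SE 0.245), Nampt 0.24 (SE 0.194), Kynu -0.20 (SE 0.129), Kmo -0.20 (SE 0.207), Nadsyn1 0.04 (SE 0.149), Afmid -0.03 (SE 0.139) and Qprt 0.03 (SE 0.158). The 95% intervals of Afmid, Kynu, Qprt and Nadsyn1 stayed within 0.50 of 0 on the log2 scale, and those of Tdo2, Kmo, Haao and Nampt reached past it. The limma adjusted p of the 8 genes lay between 0.341 and 1 in these 4 comparisons under all alternative settings tried.

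**Figure D4:**
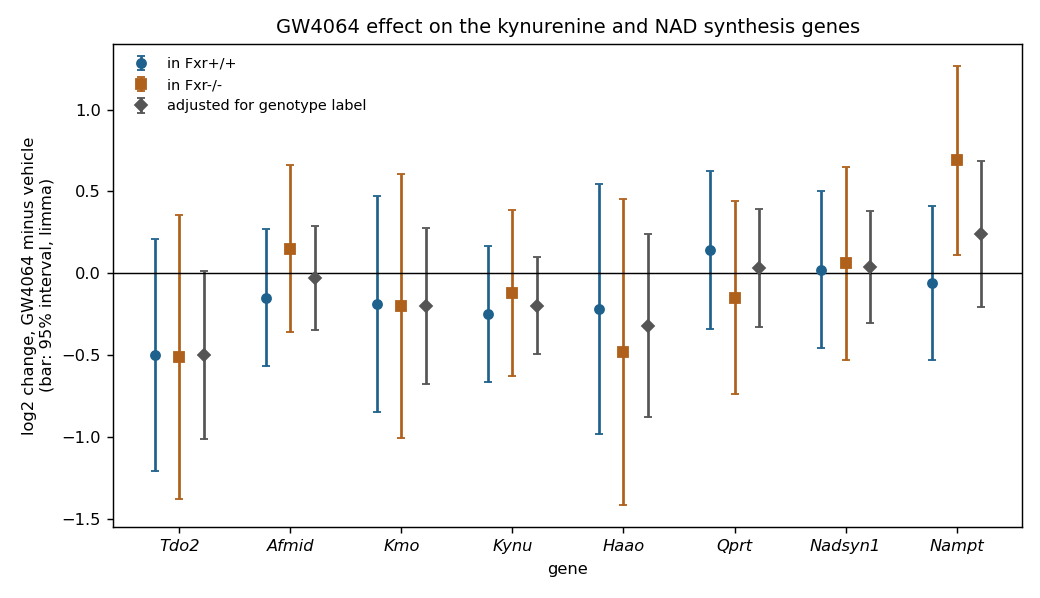
Log2 change with GW4064 (vertical axis) for each gene in arrays labelled Fxr+/+ (circles), in arrays labelled Fxr-/- (squares) and over both with the label as a covariate (diamonds); bars are 95% intervals from limma. Apart from Nampt in Fxr-/-, with an interval from 0.12 to 1.27 before adjustment, every interval spans 0.

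Genes next to the pathway were read from lists of related enzymes, and 0 members of any list passed in any of the 4 GW4064 comparisons. Of other genes handling tryptophan and kynurenine, 12 of 16 were tested, with a median log2 change over both labels of -0.01. Ddc, the decarboxylase of aromatic amino acids, had the smallest p (log2 change 0.34, SE 0.15, limma adjusted p = 0.633), followed by the amino acid transporters Slc7a5 (-0.36, SE 0.203) and Slc16a10 (-0.24, SE 0.137). The branch below Acmsd that oxidises the carbon chain had 7 of 7 genes tested and a median of -0.07. Its smallest p were those of Acat1 (-0.21, SE 0.161), Dhtkd1 (0.20, SE 0.194) and Rida (0.17, SE 0.18).

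Other genes of NAD and NADP synthesis and of nicotinamide handling had 10 of 14 tested and a median of -0.04. Nnmt, which methylates nicotinamide, read 7461 and 8844 in Fxr+/+ vehicle, 7302 and 7884 in Fxr+/+ GW4064, 5030 in Fxr-/- vehicle, and 2115 and 1947 in Fxr-/- GW4064 arrays. The Fxr-/- GW4064 pair was the lowest of the 4 groups. Its log2 change was -0.10 (SE 0.192) in Fxr+/+ and -1.30 (SE 0.236, limma adjusted p = 0.151) in Fxr-/-, and the difference of -1.20 (SE 0.304, limma adjusted p = 0.548) did not pass. Aox1 (0.50, SE 0.215) and Nmnat1 (0.52, SE 0.273) were dim on every array, at no more than 53 and 40.8. Among NAD-consuming enzymes 9 of 16 were tested, with a median of -0.04 and the smallest p for the sirtuins Sirt7 (0.21, SE 0.144), Sirt1 (-0.24, SE 0.17) and Sirt3 (-0.17, SE 0.133).

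Kynurenine is a ligand of the aryl hydrocarbon receptor, and 4 of 9 genes of that receptor and its targets were tested (median -0.01). The 4 were Arnt, Cyp1a2, Nqo1 and Ugt1a6a, without the receptor gene Ahr itself. Nqo1, a quinone reductase that NRF2 also controls, had a log2 change over both labels of 0.85 (SE 0.263, limma adjusted p = 0.445), Cyp1a2 -0.57 (SE 0.187, limma adjusted p = 0.483) and Ugt1a6a -0.03 (SE 0.137). Tdo2 is induced by glucocorticoids. Of 11 genes responsive to them 9 were tested. Of these, 8 were below 0 in Fxr+/+ (median -0.12) and 9 over both labels (median -0.07). Over both labels 50.7% of all genes were above 0. In Fxr-/- 4 were above 0 (median 0), and Mt1 had the same signal on all 3 arrays there. The counts and medians include Mt1, and nothing is read from them. Sgk1 (-0.17, SE 0.182), Mt1 and Dusp1 (-0.11, SE 0.212) had the smallest p. Mt1 lay near the top of the scale, with the identical signal of 37375 on 4 of the 7 arrays, among them all 3 labelled Fxr-/-, so its change is not given.

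Some genes of these lists were also far apart between the labels, and 3 were singled out after their values were seen. Aldh8a1, the dehydrogenase that follows Acmsd, read from 2132 to 3328 on the Fxr+/+ arrays and 242, 212 and 97.5 on the arrays labelled Fxr-/-. Nmrk1, a kinase of nicotinamide riboside, read from 415 to 685 and 78.2, 85 and 76.2. Aadat, which turns kynurenine into kynurenic acid, read from 198 to 267 and 92.3, 102 and 52. None of the 3 genes overlapped between the labels, and as a description their log2 differences under vehicle were -3.38, -2.77 and -1.28. Over all genes tested, 16.1% were lower and 19.2% higher on all 3 arrays labelled Fxr-/-, and beside these shares nothing is read from the lists. The arrays labelled Fxr-/- were all lower for 5 and all higher for 2 of the 12 tryptophan genes. In the same order it was 3 and 0 of the 7 genes below Acmsd and 3 and 0 of the 10 NAD genes. For the 9 NAD-consuming genes it was 3 and 1. It was 2 and 0 of the 4 tested genes of the aryl hydrocarbon receptor list and 1 and 1 of the 9 glucocorticoid-responsive genes.

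The genes whose log2 values followed those of Haao most closely over the 7 arrays were Slc47a1 (Pearson r = 0.9979), Slco2b1 (0.9978), Aspdh (0.9977), C8g (0.9973) and Asgr1 (0.9971). Aspdh, for example, read from 2787 to 3171 on the Fxr+/+ arrays and from 89 to 167 on those labelled Fxr-/-. The arrays form 2 clusters by label, so r mostly restates the gap between them, and 386 genes exceeded 0.95. Among the members r with Haao was 0.995 for Kmo, 0.957 for Nadsyn1, 0.936 for Qprt, 0.935 for Afmid, 0.882 for Kynu, 0.438 for Nampt and -0.797 for Tdo2.

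Of the markers of other cells, the summed lymphocyte and neutrophil signal was lower on all 3 arrays labelled Fxr-/-, and the other sums overlapped between the labels. Bright genes weigh most in a sum, as S100a8 and S100a9 with 1822 and 911 of 3417 on Fxr+/+ vehicle replicate 1. Single markers lower on all 3 arrays were 6 of 10 tested there, 3 of 8 for macrophages, 3 of 6 for hepatocytes (1 higher) and 0 of 11 for the remaining list. Over all genes it was 16.1%, and nothing is read from these counts. Kmo, Kynu and Nampt are also expressed in macrophages and other immune cells. The summed signal of 10 macrophage and Kupffer cell markers lay between 5044 and 8864 on the Fxr+/+ arrays, at 5892 on the Fxr-/- vehicle array and at 5026 and 3456 on the Fxr-/- GW4064 arrays, with Cd5l and Timd4 within the background range throughout. That of 11 lymphocyte and neutrophil markers lay between 1567 and 3600, at 1127, and at 525 and 496, with Cd79a and Ms4a1 within the background range. That of 13 bile duct, stellate and endothelial markers lay between 8487 and 10672, at 12080, and at 10205 and 7776, with Krt19 and Kdr within the background range. That of the 7 hepatocyte markers lay between 88957 and 102883, at 94125, and at 86585 and 69286. No gene of these 4 lists passed in a GW4064 comparison. Their part in the values of the kynurenine genes was not tested.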

How the data were processed

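The authors deposited 1 table of 25697 probes. In 7 columns these are linear intensities that the authors deposited after background subtraction and quantile normalization, as read from the values (31.5% to 31.6% below 0, sorted values equal within 0.5). The software was not given in the sources used here. Per the labels' protocols, biotin-labelled cRNA was hybridised to Illumina arrays. The deposited column of Fxr-/- vehicle replicate 2 holds whole numbers of another, unknown kind and was left out.

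Probes were named through the platform annotation (23978 with a symbol, 1719 without, and 23962 with the same symbol in RefSeq by Entrez identifier). From the deposited intensities, log2(max(signal, 0) + 16) was computed. Probes above their array's median on at least 2 arrays were kept (14041), and each gene was read from its brightest kept probe. Fold changes on this scale understate those of dim genes. The comparisons came from 1 model of the 4 group means (limma 3.58.1 under R 4.3.3, residual degrees of freedom 3, prior 4.55), and an additive fit of label and treatment gave the shared GW4064 effect. Tests were two-sided. The spread of the single Fxr-/- vehicle array was taken to be that of the remaining groups. P-values measure the spread between pools, which may be technical in part, and the number of arrays limits the precision. The scripts were tested on simulated data. Figures were drawn with matplotlib 3.10.9.

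Same-numbered arrays deviated together (correlations of the replicate differences of 3 groups, taken in pairs, between 0.233 and 0.375), so a replicate block was run. It changed no member's call, and moved the genes passing from 2 to 5 in Fxr+/+ and from 7 to 3 in Fxr-/-. The alternatives were an offset of 1 or 100, leaving the filter out or setting it at percentile 60, the mean of probes, median centring, added quantile normalization, only the arrays of a comparison, the replicate block and leaving out each array. The members and lists were chosen with earlier results of these data known. Named by rule were all members, up to 3 genes per list by smallest p in the additive fit, and the 5 genes most correlated with Haao. Among genes named outside this rule, Aldh8a1, Nmrk1 and Aadat were singled out after their values were seen.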

Additional observations from a re-analysis of the deposited data

Results flagged for a closer look

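Read from the brightest probes, Afmid was the 1 member whose GW4064 and vehicle arrays did not overlap in either label and lay in opposite orders. The share of all genes with such an order was not counted, and the Fxr-/- side rests on 1 vehicle array. Its brightest probe was lower with GW4064 in Fxr+/+ (1203 ± 68.7 against 1337 ± 14.4, SD, n = 2 each) and higher in arrays labelled Fxr-/- (948 ± 2.33, SD, n = 2, against 850 on 1 array). The difference between the effects was 0.31 on the log2 scale (SE 0.284, 95% interval -0.36 to 0.97) and did not pass (limma adjusted p = 0.944). With the mean of the 7 probes it was -0.25. The 6 other probes had log2 changes from -0.51 to -0.11 in Fxr-/- and from -0.05 to 0.14 in Fxr+/+. The rise in Fxr-/- was thus that of the brightest probe alone. No group held enough arrays (4) for a check of outlying arrays.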

How the results depend on the processing

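The 32 tested member values were recomputed under 480 alternatives in all. None passed the threshold under any of them (lowest limma adjusted p = 0.341), and 35 had another sign. Many alternatives could not move an estimate, since an array of the other label does not enter the effect within a label. Centring or normalizing again hardly changes signals that were already quantile normalized. The count of 35 is therefore no measure of how stable the signs are. With the mean of probes, Afmid had a log2 change of 0 in Fxr+/+ and -0.24 in Fxr-/- and a difference of -0.25, and Nadsyn1 -0.05 in Fxr-/-, a difference of -0.08 and 0 over both labels. The difference between the effects turned to 0.11 for Tdo2 and 0.08 for Kmo with the replicate block, and to 0.07 for Kmo with an offset of 100. When each array was left out in turn, the following values changed sign within their range. In Fxr+/+ these were Haao (-0.62 to 0.18), Nadsyn1 (-0.12 to 0.17) and Nampt (-0.25 to 0.13), and in Fxr-/- Kmo (-0.62 to 0.21), Qprt (-0.35 to 0.06) and Nadsyn1 (-0.07 to 0.19). Differences between the effects that did so were those of Tdo2 (-0.41 to 0.38), Kmo (-0.43 to 0.41), Haao (-0.66 to 0.15) and Nadsyn1 (-0.11 to 0.18), and shared effects those of Afmid (-0.15 to 0.03), Qprt (-0.02 to 0.14), Nadsyn1 (-0.03 to 0.11) and Nampt (-0.06 to 0.41). The cause was not tested.

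The number of genes past the threshold was unstable. In Fxr+/+ (2) it was 0 with an offset of 1 or with only the arrays of the comparison, 5 without a filter and 5 with the replicate block, and between 0 and 2 when 1 array was left out. In Fxr-/- (7) it was 55 with an offset of 1, 361 without a filter, 2 with the mean of probes, 3 with the replicate block, 0 with only its own arrays, and between 1 and 3 when 1 array was left out. For the difference between the effects (0) it was 12 with an offset of 1, 303 without a filter, and between 0 and 1 when 1 array was left out. For the shared effect (7) it was 0 with an offset of 1, 15 with an offset of 100, 0 without a filter, and between 1 and 5 when 1 array was left out. The Fxr-/- vehicle array could not be left out of the comparisons that need its group.

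The 16 differences between the labels changed sign in 0 of 224 alternatives, but 20 of these moved by over 1 SD of the gene within groups. Leaving out an array of another treatment does not touch a difference, so many alternatives could not change it. The lowest levels move most with the offset, and with 100 Haao had -4.86 under vehicle and -4.94 under GW4064, and Kmo -2.66 and -2.59. The count of 6 genes lower on every array labelled Fxr-/- was 6 in each of 15 alternatives, which were chosen after seeing the data. Most of these could not have lowered it, since an offset or leaving out an array does not break such an order. The unchanged count is therefore no check of it.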

Other observations

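The Fxr-/- GW4064 replicates differed for several members. Replicate 2 was lower than replicate 1 for 6 of the 8 genes, and lower than 75% of it for 4 (Tdo2, Kmo, Haao and Qprt). Over all 9766 genes tested, 43.2% were lower on replicate 2 and 17.2% were lower than 75% of replicate 1. The summed signal of the hepatocyte markers was 69286 on replicate 2 and 86585 on replicate 1. The bright Ttr (24494 and 15406 on replicates 1 and 2) and Cps1 (22291 and 16799) weigh most in that fall. Apoa1 and Serpina1a were also lower on replicate 2, but Hnf4a (3033 and 3507) and the dim Alb (81.6 and 103.4) were higher. The part of the summed signal in the members' values was not tested.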
